A study of Mus musculus with 8 samples.

Results

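Collagen chain genes encode the alpha chains that wind in threes into collagen molecules. They were taken as every gene whose symbol has the form Col, a type number, the letter a and a chain number. This rule found 41 of the 17164 genes in the table, and 19 of the 41 reached an FPKM (a level scaled by gene length and library size) of at least 1 in at least 2 libraries and were tested among 11606 genes. By class, the 41 comprised 11 fibrillar chains (7 tested), 6 basement membrane chains (4 tested), 6 microfibrillar chains (3 tested), 8 FACIT chains (fibril-associated collagens with interrupted triple helices, 2 tested), 2 multiplexin chains (2 tested), 4 transmembrane chains (1 tested), 2 network-forming chains, 1 anchoring chain and 1 other chain, Col28a1.

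Fibrillar collagens form the banded cables of scar tissue, and types I and III make up most of the fibrous septa of a scarred liver. The basement membrane class here holds the sheet-forming type IV chains alone, and the multiplexins Col15a1 and Col18a1 are counted as a separate class. Microfibrillar type VI beads lie around cells, and FACIT collagens coat the surface of fibrils. In injured liver the fibrillar chains are made mainly by myofibroblasts derived from hepatic stellate cells and portal fibroblasts.

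The libraries came from whole livers of male C57BL/6 mice, 2 picked at random from the 6 mice in each of 4 groups. In the model group the carcinogen diethylnitrosamine (DEN, 0.67% v/w) was injected at an age of 2 weeks, and the liver toxin carbon tetrachloride (CCl4) was injected in olive oil at 20% between 8 weeks and sacrifice at 22 weeks. Mice of DWYG-M and of DWYG-H had these injections too, and were given a herbal medicine, the Diwu Yanggan capsule (DWYG), beginning at 17 weeks, at 1 multiple of the clinical equivalent dose in DWYG-M and 2 multiples in DWYG-H. Saline replaced DEN in control mice, for which the study description names no CCl4 vehicle. CCl4 continued during DWYG treatment. The description does not say whether tumour or surrounding liver was taken. With 2 libraries a group, p-values measure the spread between these livers only.

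The libraries held between 17345627 and 19191382 counts each. Across genes, the r between replicates was 0.961 in model livers and 0.978 to 0.984 in the other groups. The hepatocyte marker Alb, which encodes albumin, ranged from 29953 to 60316 FPKM over the 8 libraries. In whole liver, fewer cells of a type and less RNA per cell cannot be told apart.

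Most tested collagen chains were higher in model than in control livers, among them 5 of 7 fibrillar, 4 of 4 basement membrane, 3 of 3 microfibrillar and 2 of 2 FACIT chains. Of the 19 tested, 15 rose and 0 fell at an adjusted p under 0.05 (edgeR's quasi-likelihood test, Benjamini-Hochberg over all genes tested). Among all genes tested, 15.1% rose and 7.12% fell. The filter, the same for all genes, could be met through the model and DWYG libraries alone. This held for Col1a1, Col5a1, Col5a2, Col4a3, Col4a5, Col6a3 and Col16a1, which were under 1 FPKM in both control livers. The counts of chains that rose include these chains. DESeq2 called 1 chain lower, where it called 8.36% of all genes tested lower. This was Col27a1, the only chain with a negative fold change and an unadjusted p under 0.05. Both model libraries were above both control libraries for 15 of 19 chains, against 47.1% of all genes tested, and below both for 1, Col27a1, against 11.9%. The median log2 fold change was 2.37 for the tested chains and -0.01 for all genes tested. Both DWYG groups lay between model and control livers for most chains. All 4 DWYG libraries were below both model and above both control libraries for 12 of 19 tested chains, 63.2%, against 11.2% of all genes tested. No chain passed the threshold in DWYG-M against model, DWYG-H against model or DWYG-H against DWYG-M.

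**Figure D1:**
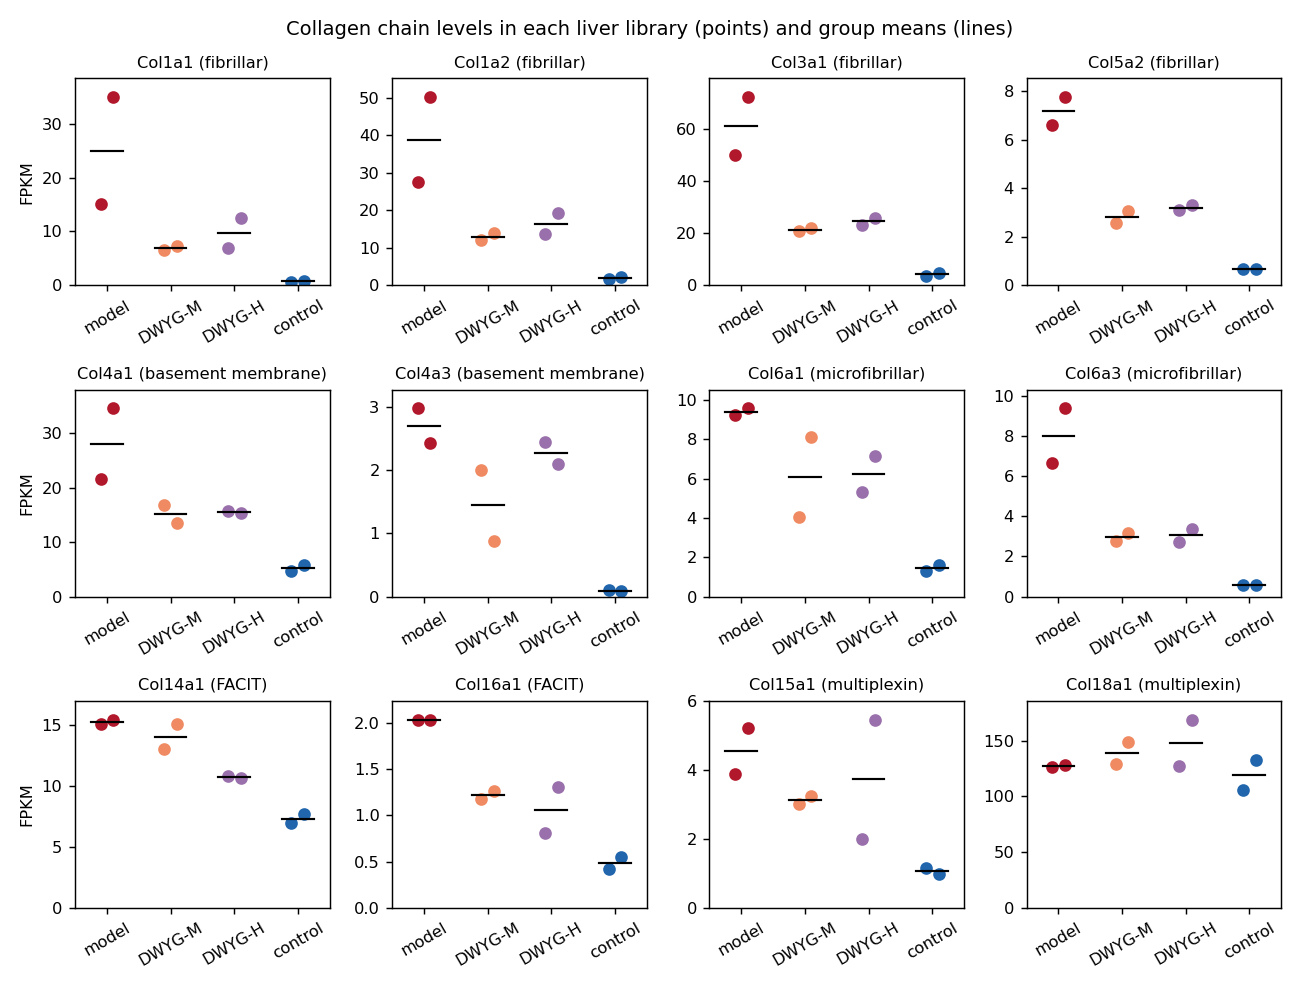
FPKM of 12 collagen chains in each of the 8 libraries (points) with group means (lines), each panel on its own linear axis from 0. For Col1a1, Col1a2, Col3a1, Col5a2, Col4a1, Col6a1, Col6a3 and Col16a1 the DWYG-M and DWYG-H points lie between the model and control points, while Col18a1 stays between 105 and 169 FPKM in all 8 libraries.

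Among the fibrillar chains, 5 of 7 rose in model livers and 0 fell. Col3a1, the single chain of type III collagen, had the highest FPKM of the class. Its level was 49.9 and 72.3 FPKM in model livers, 20.8 and 22.0 in DWYG-M, 23.3 and 25.8 in DWYG-H, and 3.68 and 4.77 in control livers. No model library overlapped any other group, and no DWYG library overlapped the control libraries. The log2 fold change in model against control livers was 3.59 (SE 0.29, adjusted p = 0.000533, edgeR).

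Type I collagen, the main fibril of scar, is built of Col1a1 and Col1a2 chains. Col1a2 stood at 27.5 and 50.1 FPKM in model livers, 12.1 and 13.9 in DWYG-M, 13.7 and 19.3 in DWYG-H, and 1.77 and 2.33 in control livers. Col1a1 stood at 15.1 and 34.9 FPKM in model livers, 6.57 and 7.28 in DWYG-M, 6.92 and 12.6 in DWYG-H, and 0.68 and 0.82 in control livers. For both chains the groups stood apart in the order model, DWYG, control, and the second model library was the highest of all 8. Col1a1 rose by 4.82 on the log2 scale in model livers (SE 0.52, adjusted p = 0.00143, edgeR), and Col1a2 by 3.99 (SE 0.39, adjusted p = 0.00100). The FPKM ratio of Col1a2 to Col1a1 was 1.82 and 1.44 in model livers, 1.84 and 1.91 in DWYG-M, 1.98 and 1.53 in DWYG-H, and 2.60 and 2.84 in control livers. This ratio was thus lowest in a model library and highest in the control libraries, with no overlap between control and the other 6 libraries.

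Type V collagen sits inside type I fibrils and limits their width. Its chain Col5a2 had 6.62 and 7.76 FPKM in model livers, 2.59 and 3.06 in DWYG-M, 3.09 and 3.30 in DWYG-H, and 0.69 in both control livers. Col5a1 had 3.14 and 4.89 FPKM in model livers, 2.11 and 1.82 in DWYG-M, 1.69 and 2.20 in DWYG-H, and 0.58 and 0.72 in control livers. Both chains showed 3 separate levels. Col5a2 rose by 3.12 in model livers (SE 0.20, adjusted p = 0.000394, edgeR) and Col5a1 by 2.37 (SE 0.31, adjusted p = 0.00237). The remaining chain of the type did not share this pattern. Col5a3 had 5.88 and 2.33 FPKM in model livers, 5.07 and 4.64 in DWYG-M, 6.59 and 5.32 in DWYG-H, and 7.63 and 4.07 in control livers. All 4 groups overlapped, apart from DWYG-H above DWYG-M, and the log2 fold change of model against control was -0.80 (SE 0.38, adjusted p = 0.168, edgeR). The FPKM ratio of Col5a3 to Col5a1 was 1.87 and 0.476 in model livers, 2.40 and 2.55 in DWYG-M, 3.90 and 2.42 in DWYG-H, and 13.2 and 5.65 in control livers.

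Col27a1, a fibrillar chain best known from cartilage, was the tested chain with the lowest log2 fold change in model against control livers, -1.23 (SE 0.40, adjusted p = 0.0630, edgeR). It had 2.14 and 0.76 FPKM in model livers, 1.17 and 1.36 in DWYG-M, 1.36 and 2.03 in DWYG-H, and 3.30 and 2.19 in control livers. Both control libraries were above the other 6. DESeq2 called it lower in model livers, as did edgeR with no filter on low values and edgeR without model replicate 1, whose levels were nearer to control than those of model replicate 2. Without model replicate 1, edgeR also called Col5a3 lower. The remaining 4 fibrillar chains, Col11a2, Col24a1, Col11a1 and Col2a1, were not tested and did not exceed 0.20 FPKM in any library. Col2a1 and Col11a1, chains of cartilage collagens, were listed at 0 in all 4 model and DWYG-M libraries.

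Upstream sequences of chains that moved together are shown for 3 genes: Col1a2 and Col3a1 as the fibrillar chains of highest FPKM with an entry in the promoter table, and Col6a3 as the type VI chain with the largest fold change. The sequences are the 250 bases before the gene start in the RefSeq promoter table for mouse build GRCm38.p6, which is not the build of the expression table (GRCm39). Of the 41 chains 33 had an entry, among them 15 of the 19 tested chains with 17 entries. Capitals mark the letters of 4 motifs searched on both strands: CCAAT (or ATTGG), the CCAAT box; TATAAA (or TTTATA), the TATA box; GGGCGG (or CCGCCC), the GC box; and GGAATG (or CATTCC), letters bound by TEAD factors, the DNA-binding partners of YAP.
Col1a2, chr6:4505368-4505617, plus strand: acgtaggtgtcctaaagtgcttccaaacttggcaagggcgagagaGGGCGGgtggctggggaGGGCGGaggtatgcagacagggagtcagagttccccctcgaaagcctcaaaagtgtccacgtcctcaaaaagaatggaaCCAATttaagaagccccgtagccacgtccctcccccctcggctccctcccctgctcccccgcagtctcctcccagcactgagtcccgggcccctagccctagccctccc
Col3a1, chr1:45311288-45311537, plus strand: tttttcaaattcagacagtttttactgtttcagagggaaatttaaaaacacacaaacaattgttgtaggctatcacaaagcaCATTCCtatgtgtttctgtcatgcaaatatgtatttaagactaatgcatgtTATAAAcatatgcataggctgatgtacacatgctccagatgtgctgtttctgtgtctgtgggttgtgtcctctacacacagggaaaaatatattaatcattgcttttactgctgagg
Col6a3, chr1:90843972-90844221, minus strand: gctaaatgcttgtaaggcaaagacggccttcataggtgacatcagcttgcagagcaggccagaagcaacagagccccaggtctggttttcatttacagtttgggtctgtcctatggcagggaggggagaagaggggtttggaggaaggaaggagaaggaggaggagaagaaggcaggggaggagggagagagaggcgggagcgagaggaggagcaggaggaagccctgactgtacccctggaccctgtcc

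In Col1a2 the CCAAT letters start 109 bases before the gene start and the GC boxes 205 and 188 bases before it. In Col3a1 the TATAAA letters start 117 bases before the gene start and the CATTCC letters 168 bases before it. Col6a3 held none of the 4 motifs in this window. Over the 17 entries of tested chains, the GC box was found in 10 (58.8%), the CCAAT box in 7 (41.2%), the TEAD letters in 3 (17.6%) and the TATA box in 2 (11.8%). Over all 32851 promoters in the table, the shares were 32.7% for the GC box, 33.8% for the CCAAT box, 12.6% for the TEAD letters and 12.4% for the TATA box. Over the 11923 promoters of tested genes they were 56%, 35.4%, 10.8% and 7.07% in the same order. The GC box was thus about as frequent in the collagen entries as in those of tested genes, and a match describes letters, not binding.

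The 4 tested basement membrane chains all rose in model livers and 0 fell. Col4a1 and Col4a2, which form the common type IV network of vessels and sinusoids, start head to head on chromosome 8, at 11312826 on the minus strand and 11312805 on the plus strand in GRCm38.p6. Col4a1 had 21.6 and 34.6 FPKM in model livers, 16.8 and 13.4 in DWYG-M, 15.7 and 15.3 in DWYG-H, and 4.72 and 5.73 in control livers. Col4a2 had 13.9 and 21.9 FPKM in model livers, 11.4 and 9.27 in DWYG-M, 9.89 and 10.3 in DWYG-H, and 3.20 and 4.24 in control livers. Each chain had its model, DWYG and control libraries at 3 separate levels. Col4a1 rose by 2.17 in model livers (SE 0.30, adjusted p = 0.00284, edgeR) and Col4a2 by 2.01 (SE 0.30, adjusted p = 0.00401). The FPKM ratio of Col4a2 to Col4a1 was 0.643 and 0.634 in model livers, 0.677 and 0.690 in DWYG-M, 0.632 and 0.670 in DWYG-H, and 0.678 and 0.740 in control livers. It varied far less than either level.

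The minor type IV chains, known from the basement membranes of kidney, lung and eye, had low levels and large fold changes. Col4a3 had 2.98 and 2.43 FPKM in model livers, 2.01 and 0.88 in DWYG-M, 2.44 and 2.10 in DWYG-H, and 0.11 and 0.08 in control livers. Col4a5 had 2.75 and 2.25 FPKM in model livers, 1.38 and 1.04 in DWYG-M, 1.59 and 1.27 in DWYG-H, and 0.19 and 0.13 in control livers. Every library with DEN and CCl4 was above both control libraries for both genes, and for Col4a3 the DWYG-H libraries overlapped the model libraries. Col4a3 rose by 4.55 in model livers (SE 0.43, adjusted p = 0.000932, edgeR) and Col4a5 by 3.68 (SE 0.27, adjusted p = 0.000427). The control values of Col4a3 rest on 16 and 12 counts, and those of Col4a5 on 21 and 14. Their paired genes Col4a4 and Col4a6 lie next to them on the same chromosomes and did not pass the filter. Col4a4 had 0.99 and 0.84 FPKM in model livers, 0.49 and 0.31 in DWYG-M, 0.45 and 0.51 in DWYG-H, and 0.07 and 0.05 in control livers. Col4a6 had 0.42 and 0.21 FPKM in model livers, 0.12 and 0.10 in DWYG-M, 0.12 and 0.09 in DWYG-H, and 0.02 and 0.01 in control livers. Both had the model libraries highest and the control libraries lowest, with no overlap. Col4a3 and Col4a4 overlap by 114 bases in the gene annotation and Col4a1 and Col4a2 by 85. That annotation starts Col4a1 at 11312889, not at the promoter table start given above. Reads in these overlaps cannot be assigned to 1 gene unless counting used strand, which the sources used here do not give.

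All 3 tested microfibrillar chains rose in model livers. Type VI collagen joins Col6a1 and Col6a2 with one more chain, most often Col6a3. Col6a1 had 9.21 and 9.57 FPKM in model livers, 4.04 and 8.09 in DWYG-M, 5.30 and 7.13 in DWYG-H, and 1.31 and 1.59 in control livers. Col6a2 had 7.24 and 7.55 FPKM in model livers, 2.79 and 4.83 in DWYG-M, 3.84 and 4.83 in DWYG-H, and 1.02 and 1.2 in control livers. The DWYG-M libraries differed from each other more than the model libraries did for both genes. Col6a3 had 6.67 and 9.39 FPKM in model livers, 2.79 and 3.18 in DWYG-M, 2.73 and 3.38 in DWYG-H, and 0.56 and 0.57 in control livers. Its 3 levels were separate and its DWYG replicates close. Col6a3 rose by 3.59 in model livers (SE 0.26, adjusted p = 0.000427, edgeR), Col6a1 by 2.42 (SE 0.34, adjusted p = 0.00325) and Col6a2 by 2.41 (SE 0.29, adjusted p = 0.00189). The FPKM ratio of Col6a3 to Col6a1 was 0.724 and 0.981 in model livers, 0.691 and 0.393 in DWYG-M, 0.515 and 0.474 in DWYG-H, and 0.427 and 0.358 in control livers, so both model libraries had the highest ratios. The ratio of Col6a2 to Col6a1 was 0.786 and 0.789 in model livers, 0.691 and 0.597 in DWYG-M, 0.725 and 0.677 in DWYG-H, and 0.779 and 0.755 in control livers, so all 4 DWYG libraries were below the model and control libraries. Of the chains that can replace Col6a3, Col6a5 had 0.86 and 0.44 FPKM in model livers, 0.14 and 0.21 in DWYG-M, 0.29 and 0.25 in DWYG-H, and 0.02 and 0.03 in control livers. Col6a6 had 0.41 and 0.54 FPKM in model livers, at most 0.28 in any DWYG library, and 0.03 and 0.11 in control livers. Col6a4, the last of them, did not exceed 0.02 FPKM.

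Both tested FACIT chains rose in model livers, and they had the smallest median fold change of the 4 main classes, 1.40 on the log2 scale. Col14a1, which binds the surface of type I fibrils, had 15.0 and 15.4 FPKM in model livers, 13.1 and 15.0 in DWYG-M, 10.8 and 10.7 in DWYG-H, and 6.92 and 7.69 in control livers. It ran from model through DWYG-M and DWYG-H to control, with model and DWYG-M libraries touching and the others apart. It rose by 0.79 in model livers (SE 0.16, adjusted p = 0.0139, edgeR). The call was lost without model replicate 2, control replicate 1 or control replicate 2. Col16a1 had 2.04 FPKM in both model livers, 1.18 and 1.26 in DWYG-M, 0.81 and 1.31 in DWYG-H, and 0.42 and 0.55 in control livers, and rose by 2.00 in model livers (SE 0.27, adjusted p = 0.00276, edgeR). Its 3 levels did not overlap. Among the 6 FACIT chains not tested, Col12a1, a fibril-coating chain known from tendon, had 1.78 and 0.83 FPKM in model livers, 0.42 and 0.38 in DWYG-M, 0.33 and 0.38 in DWYG-H, and 0.36 and 0.32 in control livers. It passed 1 FPKM in a single library. Col20a1 had 0.36 and 0.18 FPKM in model livers and 0.33 and 0.34 in control livers, which overlapped.

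Col18a1, the multiplexin whose cleaved end is endostatin and which hepatocytes are known to make, had more FPKM than any other collagen chain in every library. It had 127 and 129 FPKM in model livers, 130 and 149 in DWYG-M, 127 and 169 in DWYG-H, and 105 and 133 in control livers. The model libraries lay within the control range, and the log2 fold change was -0.19 (SE 0.23, adjusted p = 0.613, edgeR), above 0 on the FPKM and TPM scales. Col18a1 made up 38.1% and 30.7% of the summed collagen FPKM in model livers, 53.2% and 55.6% in DWYG-M, 52.2% and 55.2% in DWYG-H, and 72.0% and 76.1% in control livers. Col15a1, the other multiplexin, had 3.89 and 5.20 FPKM in model livers, 3.01 and 3.23 in DWYG-M, 1.98 and 5.46 in DWYG-H, and 1.15 and 0.99 in control livers. It rose by 1.83 in model livers (SE 0.43, adjusted p = 0.0217, edgeR), a call lost without model replicate 2, control replicate 1 or control replicate 2. The DWYG-H libraries spanned the whole range of the model and DWYG-M libraries for this gene. Col13a1, a transmembrane chain, had 3.55 and 1.49 FPKM in model livers, 2.43 and 2.14 in DWYG-M, 2.08 and 2.50 in DWYG-H, and 1.54 and 1.93 in control livers. The model libraries spanned the other 6, and the log2 fold change was 0.26 (SE 0.35, adjusted p = 0.641, edgeR).

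The 22 chains not tested held little RNA. Of these, 7 never passed 0.1 FPKM, 14 peaked between 0.1 and 1 FPKM, and Col12a1 peaked higher. Both model libraries were above both control libraries for 11 of the 22, against 39.7% of the 5558 genes not tested, a share not far from that of the chains. All 4 DWYG libraries lay between them for 5 of the 22 (Col4a4, Col4a6, Col6a5, Col6a6 and Col8a1), against 5.29% of the genes not tested. Col8a1, a network-forming chain of vessel walls, had 0.61 and 0.98 FPKM in model livers, 0.46 and 0.34 in DWYG-M, 0.28 and 0.21 in DWYG-H, and 0.12 and 0.07 in control livers. Its order followed model, DWYG-M, DWYG-H and control with no overlap.

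**Figure D2:**
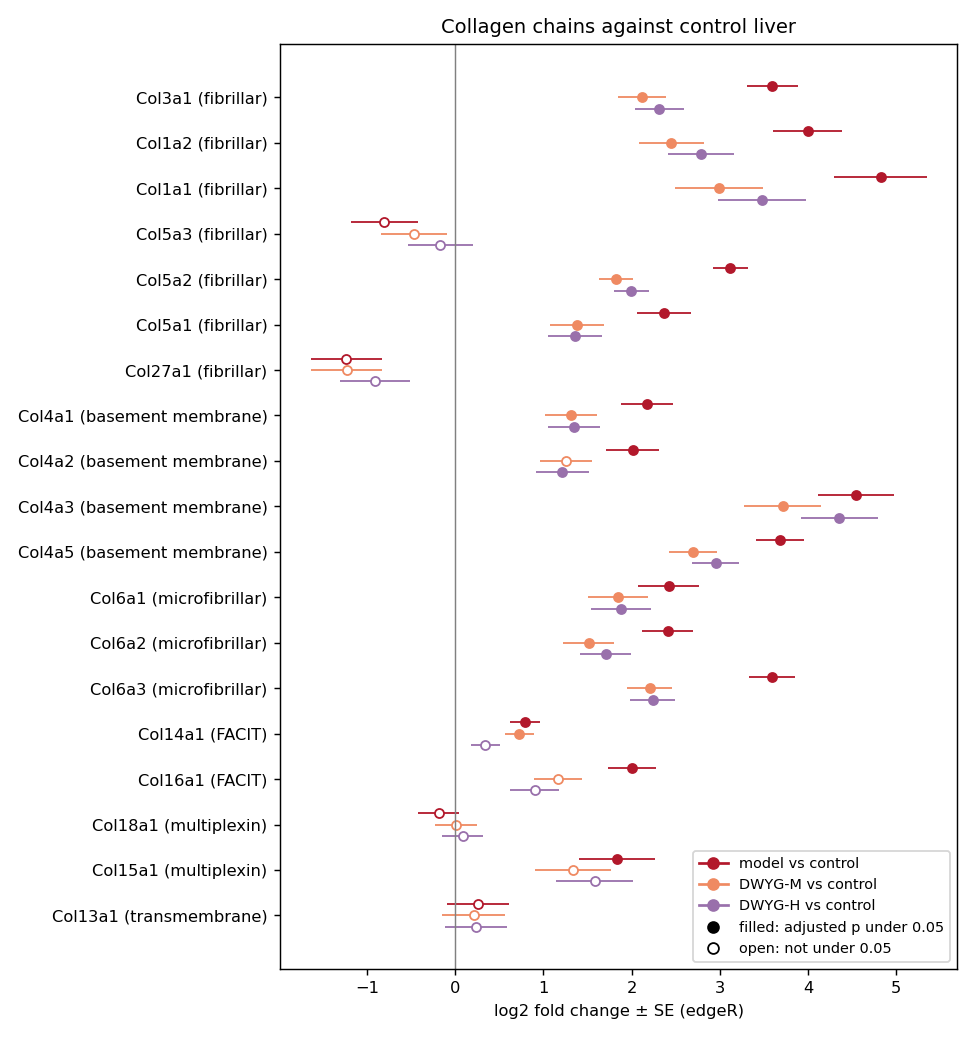
Log2 fold change of the 19 tested chains against control liver for model, DWYG-M and DWYG-H, with standard errors from edgeR (bars); filled points have an adjusted p under 0.05. Model livers have 15 filled points and each DWYG group has 12, all to the right of 0, while Col5a3, Col27a1, Col18a1 and Col13a1 are open in all 3.

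Summed FPKM of the fibrillar, basement membrane, microfibrillar and FACIT classes was highest in model livers, lowest in control livers and between them in the DWYG livers. The multiplexin and transmembrane sums overlapped between model and control livers. The fibrillar sum was 111 and 173 FPKM in model livers, 50.6 and 54.2 in DWYG-M, 56.9 and 70.8 in DWYG-H, and 18.4 and 15.8 in control livers. Basement membrane chains summed to 42.6 and 62.2 FPKM in model livers, 32.1 and 25.04 in DWYG-M, 30.1 and 29.5 in DWYG-H, and 8.31 and 10.2 in control livers. In both classes the 3 levels were separate. The microfibrillar sum was 24.4 and 27.5 FPKM in model livers, 10.04 and 16.5 in DWYG-M, 12.5 and 15.8 in DWYG-H, and 2.94 and 3.5 in control livers. The FACIT sum was 19.5 and 19.1 FPKM in model livers, 15.1 and 17.2 in DWYG-M, 12.3 and 12.9 in DWYG-H, and 8.16 and 8.99 in control livers. The DWYG-H libraries were above the DWYG-M libraries in the fibrillar sum and below them in the FACIT sum. The doses overlapped in the basement membrane, microfibrillar, multiplexin and transmembrane sums. All chains but Col18a1 together gave 206 and 290 FPKM in model livers, 114 and 119 in DWYG-M, 116 and 137 in DWYG-H, and 40.9 and 41.8 in control livers. Fibrillar chains were 53.8% and 59.7% of that sum in model livers, 44.4% and 45.5% in DWYG-M, 48.9% and 51.5% in DWYG-H, and 45.0% and 37.9% in control livers. The fibrillar share was highest in both model libraries.

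**Figure D3:**
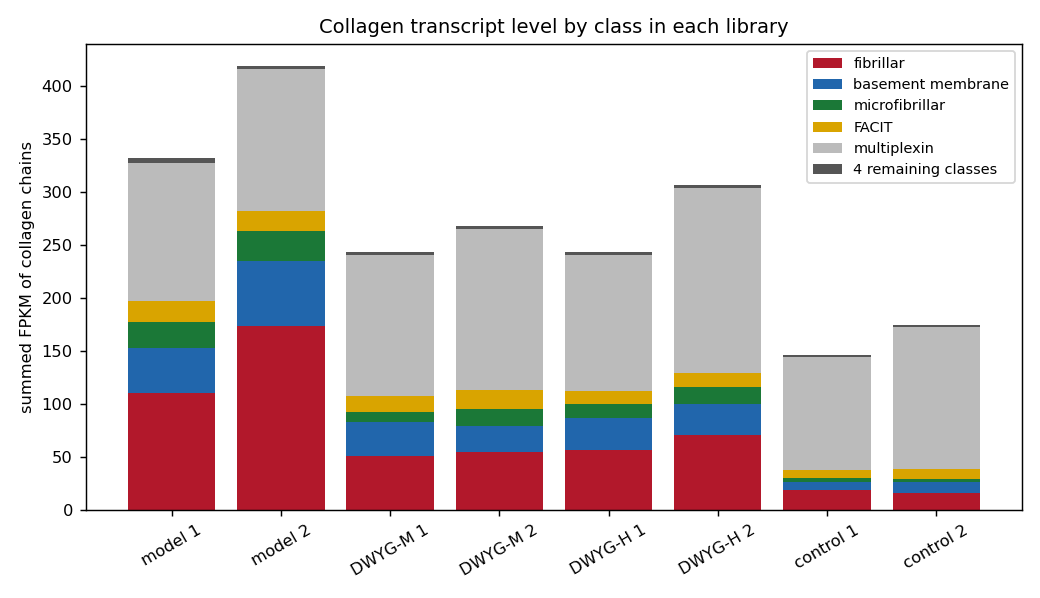
Summed FPKM of collagen chains by class (stacked, from 0) in each library. The fibrillar part is 111 and 173 FPKM in the model libraries and 18.4 and 15.8 in the control libraries, with the DWYG libraries between 50.6 and 70.8, while the multiplexin part, nearly all Col18a1, changes little.

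Treatment was asked about by setting each DWYG group against model livers. In DWYG-M against model, 0 of 19 chains passed the threshold in either direction with edgeR, where 0.00862% of all genes tested rose and 0% fell. An unadjusted p under 0.05 was found for 12 of the 19 chains, against 12.6% of all genes tested. In DWYG-H against model, edgeR called 0 of 19 chains, with 0% of all genes tested called higher and 0% lower, and 12 of the 19 chains had an unadjusted p under 0.05, against 8.49% of all genes tested. Both comparisons share the model libraries. DWYG-M libraries were below both model libraries for 14 of 19 chains, against 25.6% of all genes tested, and above both for 1, Col18a1, against 13.5%. DWYG-H libraries were below both model libraries for 13 of 19 chains, against 23.2%, and above both for 0, against 10.6%. The median log2 fold change of the chains was -0.84 in DWYG-M and -0.73 in DWYG-H, beside -0.02 and -0.01 for all genes tested.

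The smallest adjusted p in DWYG-M against model was that of Col5a2, 0.197 (edgeR), with a log2 fold change of -1.30 and a 95% confidence interval of -1.72 to -0.88. Col1a1 had the most negative fold change, -1.83 (interval -2.86 to -0.81, adjusted p = 0.231, edgeR), followed by Col1a2 with -1.55 (adjusted p = 0.213), Col3a1 with -1.48 (adjusted p = 0.213) and Col6a3 with -1.39 (adjusted p = 0.213). These 5 chains were the 5 that DESeq2 called lower, where it called 1.15% of all genes tested lower. Without 1 library, Col1a1 ran from -2.37 to -0.97 on the log2 scale in DWYG-M and Col5a2 from -1.49 to -1.07. In DWYG-H against model the log2 fold change was -1.12 for Col5a2 (interval -1.54 to -0.70, adjusted p = 0.250, edgeR), -1.35 for Col6a3 (adjusted p = 0.250), -1.28 for Col3a1 (adjusted p = 0.250), -1.34 for Col1a1 (adjusted p = 0.471) and -1.21 for Col1a2 (adjusted p = 0.395). Col16a1 had -1.10 (adjusted p = 0.312, edgeR), the smallest p after those of Col5a2, Col6a3 and Col3a1. DESeq2 called Col5a2, Col6a3, Col3a1 and Col1a2 lower in DWYG-H, where it called 0.707% of all genes tested lower, and edgeR without model replicate 1 called Col6a3 alone among the chains, where 0.0517% of all genes tested were lower. Without model replicate 2, the library with the highest fibrillar levels, the median log2 fold change of the chains was -0.52 in DWYG-M and -0.46 in DWYG-H. In that fit 17 of 19 chains were below 0 in DWYG-M and 16 of 19 in DWYG-H, where 49.6% and 49.8% of all genes tested were.

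**Figure D4:**
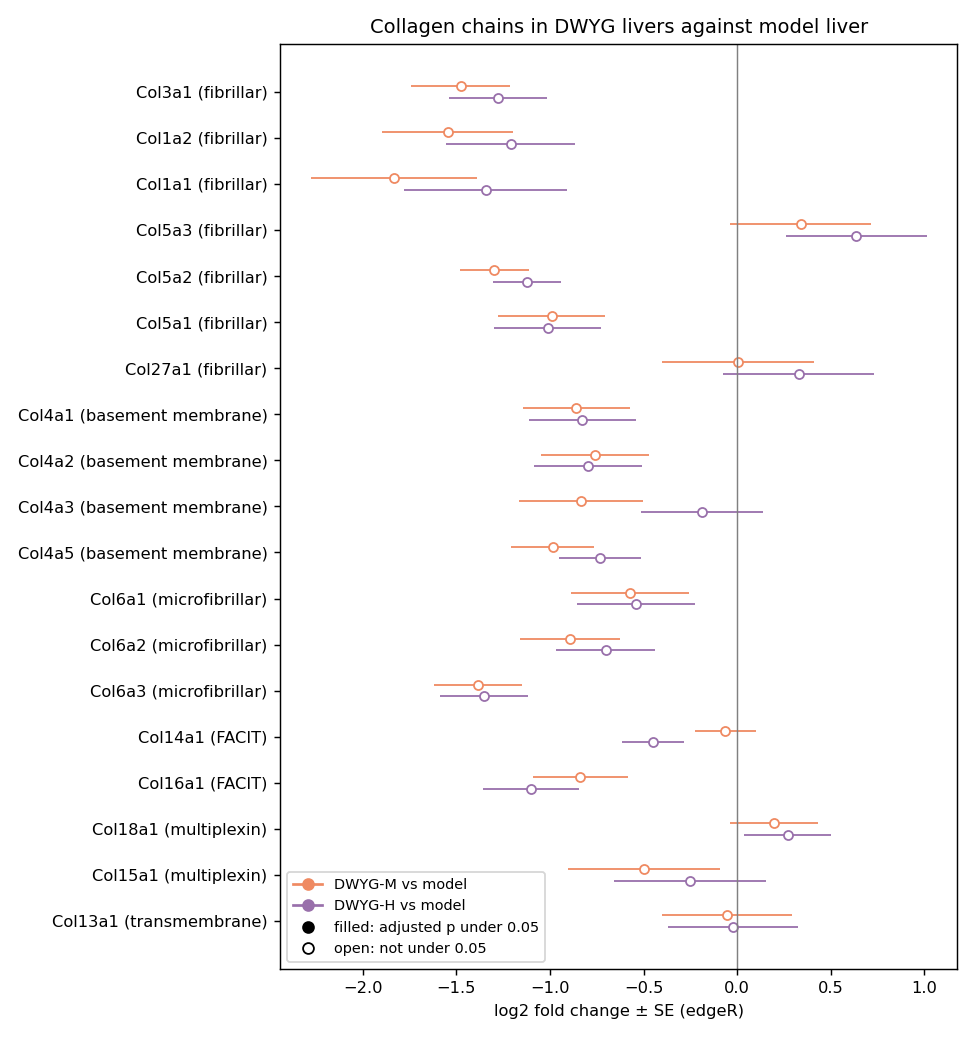
Log2 fold change of the 19 tested chains in DWYG-M and DWYG-H against model liver, with standard errors from edgeR (bars); all points are open, since no adjusted p was under 0.05. Fibrillar chains Col1a1, Col1a2, Col3a1 and Col5a2 and the microfibrillar Col6a3 lie between -1.83 and -1.12 for both doses, and both groups share the same model libraries.

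Between doses, DWYG-H against DWYG-M, edgeR called 0 of 19 chains, with 0% of all genes tested called in each direction, and DESeq2 called 0 chains. DWYG-H libraries were above both DWYG-M libraries for 4 of 19 chains (Col3a1, Col5a2, Col5a3 and Col4a3), against 13.1% of all genes tested, and below both for 1, against 13.5%. The 1 lower chain was Col14a1, whose log2 fold change of -0.39 (interval -0.76 to -0.01) was the only one among the chains with an unadjusted p under 0.05, 0.0458, and had an adjusted p of 1 (edgeR). Of all genes tested 1.66% had an unadjusted p under 0.05. Col4a3 had 0.65 (interval -0.12 to 1.41, adjusted p = 1, edgeR) and Col4a5 0.25 (interval -0.26 to 0.77). For Col1a1 the interval of the difference ran from -0.52 to 1.49 and for Col3a1 from -0.40 to 0.80. These intervals do not show that the 2 doses act alike.

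Against control livers, 12 of 19 chains were higher in DWYG-M and 12 of 19 in DWYG-H, and 0 were lower in either. Among all genes tested, 4.35% rose and 0.603% fell in DWYG-M, and 6.59% rose and 1.09% fell in DWYG-H. DWYG-M libraries were above both control libraries for 16 of 19 chains, against 49.2% of all genes tested, and below both for 1, Col27a1, against 7.98%. DWYG-H libraries were above both for 16 of 19, against 46.9%, and below both for 1, Col27a1, against 10.3%. DESeq2 called 15 chains higher and 1 lower in DWYG-M, where it called 7.28% of all genes tested higher and 1.4% lower. In DWYG-H it called 13 chains higher and 0 lower, against 9.43% and 2.51% of all genes tested. Both comparisons and that of the model share the control libraries. In DWYG-M the log2 fold change was 3.71 for Col4a3 (SE 0.43, adjusted p = 0.00494, edgeR), 2.99 for Col1a1 (SE 0.49, adjusted p = 0.0165), 2.12 for Col3a1 (SE 0.27, adjusted p = 0.00737) and 1.82 for Col5a2 (SE 0.20, adjusted p = 0.00464). In DWYG-H it was 4.36 for Col4a3 (SE 0.43, adjusted p = 0.00252, edgeR), 3.48 for Col1a1 (SE 0.50, adjusted p = 0.00821), 2.32 for Col3a1 (SE 0.28, adjusted p = 0.00409) and 2.00 for Col5a2 (SE 0.20, adjusted p = 0.00252). Col14a1 was called in DWYG-M (0.73, adjusted p = 0.0463) and not in DWYG-H (0.34, adjusted p = 0.255), and Col4a2 in DWYG-H (1.22, adjusted p = 0.0467) and not in DWYG-M (1.25, adjusted p = 0.0554). The difference between the doses is the comparison above. Counts of calls leaned on single libraries, among all genes tested as well as among the chains. Both counts fell without either control library. They also fell in DWYG-M without DWYG-M replicate 2 and in DWYG-H without DWYG-H replicate 2. The fold changes of the chains kept their direction for Col3a1 and Col4a3. Without 1 library, Col3a1 ran from 1.89 to 2.36 on the log2 scale in DWYG-M and from 2.09 to 2.56 in DWYG-H. Col4a3 ran from 2.99 to 4.19 in DWYG-M and from 4.22 to 4.48 in DWYG-H.

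Other genes of collagen making and turnover were read from 8 lists. In model against control livers 7 of 16 tested hydroxylation and folding genes rose, 6 of 13 export and processing genes, 5 of 6 crosslinking genes, 8 of 11 fibril regulators, 5 of 8 collagen receptors, 8 of 10 collagenases, gelatinases and inhibitors, 9 of 13 basement membrane partners and 8 of 17 TGF-beta signalling genes, and 0 fell in each list. Each share was above the 15.1% of all genes tested. P4hb and Ppib, the folding enzymes of highest FPKM, are general endoplasmic reticulum proteins and had log2 fold changes of 0.33 and 0.26 (adjusted p = 0.487 and 0.564, edgeR). Colgalt1, which adds galactose to collagen, rose by 0.54 (adjusted p = 0.0366). Sparc, which binds collagen after secretion, had 98.3 and 156 FPKM in model livers, 67.6 and 64.8 in DWYG-M, 67.5 and 64.9 in DWYG-H, and 20.8 and 24.6 in control livers, and rose by 2.24 in model livers (adjusted p = 0.00230, edgeR). Its 3 levels were separate, as for Col1a1. The other export genes of highest FPKM, Mia2 and Mia3, which help load collagen into transport carriers, had log2 fold changes of -0.52 (adjusted p = 0.0672, edgeR) and -0.32 (adjusted p = 0.214) in model livers. Among crosslinking enzymes Loxl2 rose by 2.53 (adjusted p = 0.00294, edgeR) and Loxl4 by 3.67 (adjusted p = 0.00494), while Tgm2 had 0.95 (adjusted p = 0.0789). Lox, chosen after its values were seen, had 2.07 and 2.28 FPKM in model livers, 0.68 and 0.61 in DWYG-M, 0.67 and 0.83 in DWYG-H, and 0.13 and 0.08 in control livers. Nid1, which links laminin to type IV collagen, had 31.3 and 65.2 FPKM in model livers, 44.0 and 18.5 in DWYG-M, 43.4 and 26.4 in DWYG-H, and 2.91 and 2.93 in control livers. Unlike Col4a1, its model and DWYG libraries overlapped. It rose by 3.81 in model livers (adjusted p = 0.00372, edgeR), and of the other basement membrane partners of highest FPKM, Agrn rose by 0.77 (adjusted p = 0.0184) and Lamc1 by 1.19 (adjusted p = 0.0115). In DWYG-M against model, DWYG-H against model and DWYG-H against DWYG-M, edgeR called 0 members of each of the 8 lists. Of their 94 tested genes, 31 had an unadjusted p under 0.05 in DWYG-M against model (12.6% of all genes tested did), 35 in DWYG-H against model (8.49%) and 2 in DWYG-H against DWYG-M (1.66%). DESeq2 called 9, 7 and 1 of the 94 in these comparisons, where it called 1.77%, 1.03% and 0.0431% of all genes tested.

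Cell type markers were read beside the chains. Of 12 myofibroblast markers tested, 11 rose in model livers. Summed FPKM of all 13, the largest part of it Vim, was 131 and 158 in model livers, 72.6 and 68.9 in DWYG-M, 68.1 and 87.8 in DWYG-H, and 28.8 and 25.7 in control livers. As multiples of the control mean, these sums were 4.82 and 5.80 in model livers, 2.66 and 2.53 in DWYG-M livers, and 2.50 and 3.22 in DWYG-H. The collagen chains but Col18a1 stood at 4.97 and 7.02 in model livers, 2.76 and 2.88 in DWYG-M livers, and 2.81 and 3.32 in DWYG-H, on the same scale. Loxl1 is on both the myofibroblast and the crosslinking list. Summed FPKM of 10 cholangiocyte markers, most of it Spp1, was 332 and 466 in model livers, 223 and 189 in DWYG-M, 240 and 281 in DWYG-H, and 43.8 and 41.1 in control livers, and 7 of 8 tested rose. The 3 tested mesothelial markers all rose, as did 3 of 4 smooth muscle, 3 of 12 endothelial, 4 of 12 macrophage, 1 of 3 lymphocyte and 2 of 11 quiescent stellate cell markers, while 1 macrophage marker and 1 quiescent stellate marker fell. Against the 15.1% of all genes tested that rose and the 7.12% that fell, the count of quiescent stellate cell markers that rose was near the background. Of the 9 hepatocyte markers tested 0 passed the test in model livers, and their summed FPKM ran from 63258 to 97725 in model and from 61315 to 67340 in control livers. No marker list held a gene at 0 in every library. In the 3 comparisons among model and DWYG livers, edgeR called 0 members of each of the 9 marker lists. Of their 74 tested genes, 30 had an unadjusted p under 0.05 in DWYG-M against model, 24 in DWYG-H against model and 2 in DWYG-H against DWYG-M, beside 12.6%, 8.49% and 1.66% of all genes tested. DESeq2 called 7, 7 and 0 of the 74, beside 1.77%, 1.03% and 0.0431% of all genes tested. The part of changed cell numbers in the collagen differences was not tested.

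**Figure D5:**
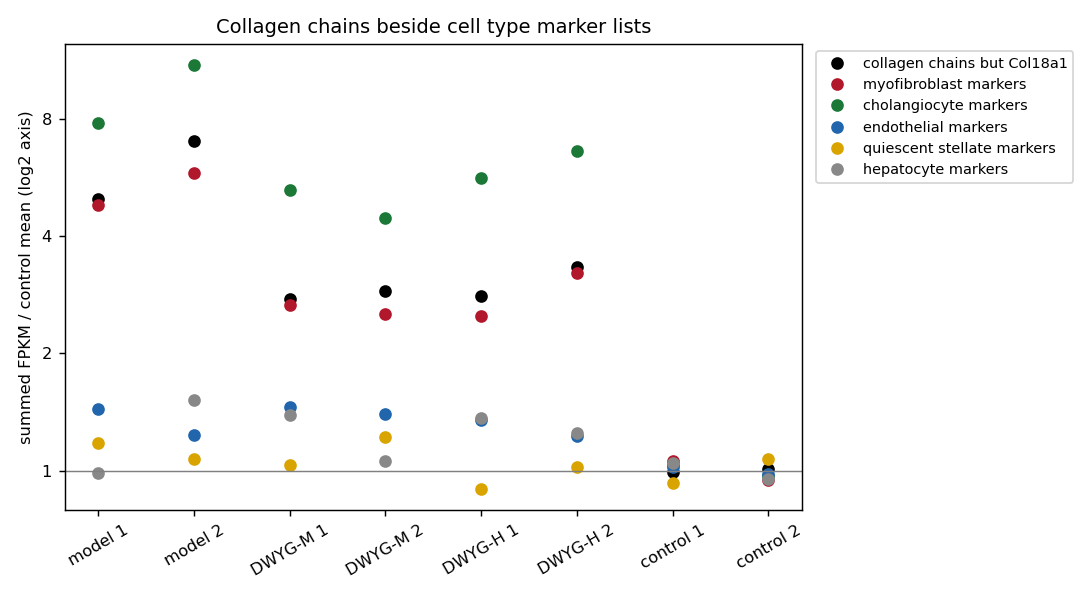
Summed FPKM of the collagen chains but Col18a1 and of 5 marker lists in each library, as multiples of the mean of the 2 control libraries on a log2 axis. Collagen chains and myofibroblast markers lie between 4.82 and 7.02 in the model libraries and between 2.50 and 3.32 in the DWYG libraries. The cholangiocyte sum, most of it Spp1, lies above both. The median log2 fold change against control of the 8 tested cholangiocyte markers was 1.17 in DWYG-M and 0.85 in DWYG-H. That of the 19 tested chains was 1.38 and 1.58. Endothelial, quiescent stellate and hepatocyte markers stay between 0.899 and 1.52.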

How the data were processed

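One table with 8 livers, 2 per group, was analysed. The labels' protocols name an Ambion kit for RNA extraction and Takara's SMART-Seq mRNA LP for libraries. GRCm39 is the build in the submitters' processing notes. The sources used here do not give the aligner, counting tool, annotation or use of strand. The deposited read count columns, so named per the file headers, were taken to hold expected counts, since not all values were whole. Per library, 89.8% to 91.5% of values were whole (within 0.005), and the rest had fractions. FPKM values were deposited by the authors, scaled by gene length and library size. TPM values were deposited by the authors scaled to a fixed sum per library. A further 24 value columns were not used.

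Expected counts were rounded and tested with edgeR 4.0.16 (R 4.3.3) after TMM scaling, in 1 model of 4 groups over 8 libraries (4 residual degrees of freedom, common dispersion 0.0377, median prior degrees of freedom 3.98). The filter kept genes that reached 1 FPKM in 2 or more libraries, and Benjamini-Hochberg adjustment ran over all 11606. Standard errors were derived from the F statistic, and 95% intervals used the t distribution with the degrees of freedom of the fit. The code was tested on simulated data. The 17 alternatives were DESeq2 1.42.0, its size factors in edgeR, no filter and an FPKM minimum of 5, only the groups compared, a replicate block, limma 3.58.1 on log2(FPKM + 1), log2(FPKM + 0.1) and log2(TPM + 1), and leaving out each library. The collagen chains, classes and gene lists were chosen with earlier results of these data known. Library values are given for up to 4 chains per class by mean FPKM and for the 4 chains with the smallest p in each comparison among model and DWYG livers, and for up to 3 genes per list by mean FPKM. Further genes were named after their values were seen. FPKM sums move with the composition of each library. Median log2 fold changes of all genes in model against control were 0.21 with log2(FPKM + 1), 0.25 with log2(FPKM + 0.1) and 0.50 with log2(TPM + 1).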

Additional observations from a re-analysis of the deposited data

How the results depend on the processing

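Of the 15 chains called higher in model against control livers, between 13 and 15 were called when 1 library was left out. Counts of 0 chains lower became 1 with DESeq2 and 1 with no filter in that comparison, and 0 to 2 without 1 library. They became 5 (DWYG-M against model) and 4 (DWYG-H against model) with DESeq2, and 0 to 5 and 0 to 1 without 1 library. In DWYG-M against control, 1 chain was lower with DESeq2 and 1 when only these groups were fitted, and 0 to 1 without 1 library. Chains higher ran from 0 to 14 in DWYG-M against control and from 4 to 12 in DWYG-H against control without 1 library. The median log2 fold change of the chains was 1.75 on log2(FPKM + 1) and 2.14 on log2(TPM + 1) in model against control, 1.12 in DWYG-M and 1.24 in DWYG-H against control on log2(FPKM + 1). Without 1 library it ran from 1.90 to 2.56 (model against control), -0.94 to -0.52 (DWYG-M against model), -0.83 to -0.46 (DWYG-H against model) and 1.38 to 1.85 (DWYG-H against control). In model against control, Col18a1 changed sign to 0.11 on both FPKM scales and 0.43 on the TPM scale, and ran from -0.39 to 0.00995 without 1 library, above 0 without control replicate 2. Col13a1 ran from -0.36 to 0.70 without 1 library, below 0 without model replicate 1. With the replicate block 15, 12 and 12 chains were higher against control in model, DWYG-M and DWYG-H. Of the 11606 genes tested, 2682, 507 and 856 were called there in either direction. In the other comparisons 0 chains and 0 genes were called. The medians of the chains were 2.34, 1.41 and 1.46 against control. Same-numbered libraries deviated together at r from -0.14 to 0.26 over the 6 pairs of groups. With 2 libraries a group, these values cannot show whether the numbers pair the livers. The cause of these shifts was not tested. Levels under 1 FPKM rest on few counts.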
